A study of Aspergillus niger with 9 samples.

Results

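The genes described here encode the enzymes that charge tRNAs with amino acids and the factors that start, elongate and end protein synthesis in the filamentous fungus Aspergillus niger. They were chosen by text in the SwissProt description of the deposited annotation: entries naming a tRNA ligase, a translation initiation factor, elongation factor 1, 2 or 3, a peptide chain release factor or eIF4A, with ribosomal protein entries left out. This gave 86 of the 11187 genes in the table. They comprise 23 tRNA ligases with a cytosolic or no stated location, 14 ligases described as mitochondrial, 37 initiation factors, 6 elongation factors and 4 release factors. The remaining 2 matched by wording only: an eIF2-alpha kinase (EIF2AK1, ATCC64974_85530) and a transcription elongation factor (SPAC1B3.02c, ATCC64974_66070). Gene symbols come from the best SwissProt match, which was an A. niger protein for 12 of the 86 genes and otherwise often one from a yeast, Neurospora crassa or a more distant species, so a role given below is the role of that matched protein.

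Aminoacyl-tRNA ligases, also called synthetases, join each amino acid to its tRNA, and fungi keep both a cytosolic and a mitochondrial supply of most charged tRNAs. In the cytosol, eIF4 factors bind and unwind the mRNA 5′ end, eIF3 and eIF2 with the initiator tRNA form the complex that scans for a start codon, and eIF2B reloads eIF2 with GTP. The eEF1 and eEF2 GTPases then drive each elongation step, fungi need the additional ATPase eEF3, and eRF1 with eRF3 releases the finished chain.

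RNA was measured in vegetative mycelium of 3 strains with 3 biological replicates each: ΔaslA, a knockout of aslA in the MA234.1 background, ΔaslB, a knockout of aslB in the same background, and MA234.1 itself, for which the labels give no genotype. All were grown in shaken liquid culture. The labels name a 16 h culture in TM-G, a minimal medium with 25 mM glucose and with casamino acids at 0.2% and yeast extract at 0.5%, and a 4 h culture in MM-X, with 25 mM xylose. These entries are the same for every library and name no difference of medium between the strains. They do not say which culture a library came from, so a difference of medium, if there was any, cannot be told apart from a difference of strain. The series title places the strains among transcription factors downstream of the developmental regulator FlbA.

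The 9 libraries held 11321882 to 19110786 counts. The library labelled ΔaslB replicate 2 stood apart from the other ΔaslB libraries: over the 9568 genes kept, its log2 expression correlated with the MA234.1 libraries at 0.970 to 0.978 and with the ΔaslA libraries at 0.777 to 0.798, and correlations within ΔaslB ran from 0.799 to 0.943. Within ΔaslA they were 0.971 to 0.991 and within MA234.1 0.984 to 0.991. No gene named aslA or aslB was found in the annotation, so the deletions were not checked by their own transcripts, and a mix-up of the library labelled ΔaslB replicate 2 was not tested. Values over all 3 ΔaslB libraries rest on its label. As a check on the labelled tissue, 18 entries chosen by text for conidiation (asexual sporulation) or spore walls were followed. They include the yeast spore wall entries LDS1, RRT8 and DIT1 and repeated matches to the conidial pigment synthase wA. They therefore do not measure conidiation alone. The 18 entries summed to 171 to 176 CPM in ΔaslA, 135 to 190 CPM in ΔaslB and 208 to 215 CPM in MA234.1. Of the 13 measured, 2 were called higher and 5 lower in ΔaslA than in MA234.1, where 23.6% and 25% of all genes tested were. With so few entries these counts do not set the list apart from all genes. Their median log2 fold change was -0.62. The conidiation regulator brlA (ATCC64974_72370) was at 17.9, 11.7 and 18.7 CPM in ΔaslA replicates 1 to 3, at 12.8, 25.6 and 16.5 CPM in ΔaslB and at 36.9, 41.0 and 39.2 CPM in MA234.1, and was called lower in ΔaslA. The regulator abaA (ATCC64974_20070), called higher, was at 18.4, 21.7 and 16.9 CPM in ΔaslA replicates 1 to 3, at 9.88, 2.85 and 12.3 CPM in ΔaslB and at 0.826, 2.01 and 1.46 CPM in MA234.1. A second brlA entry (ATCC64974_15030) and the regulator wetA (ATCC64974_16190) overlapped between ΔaslA and MA234.1 and were not called. Their log2 fold changes were -0.62 and 0.12 (edgeR adjusted p = 0.351 and 0.771). The part of conidiating cells in the results below was not tested. In bulk RNA, fewer cells of a kind and less RNA per cell cannot be told apart.

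Between ΔaslA and MA234.1, the translation machinery was higher almost throughout. Of the 86 genes, 84 passed the filter on low counts and entered the test. At an edgeR adjusted p under 0.05, 71 of the 84 were higher in ΔaslA and 0 were lower, where 23.6% of all 9568 genes tested were called higher and 25% lower. The fit took its estimate of the spread from all 9 libraries, the library labelled ΔaslB replicate 2 included. The standard errors, adjusted p and calls below thus do not rest on the 6 libraries of ΔaslA and MA234.1 alone. The median log2 fold change was 2.06 over the 84 genes and 0.00 over all genes. All ΔaslA libraries lay above all MA234.1 libraries for 78 of the 84 genes and below them for 3, where 36.8% and 37.9% of all genes did. Summed over the 86 genes, CPM (reads per 1e6 counts of the TMM-scaled library) came to 43965, 36274 and 43872 in ΔaslA replicates 1 to 3, to 40055, 10416 and 42811 in ΔaslB replicates 1 to 3, and to 10399.6, 10109 and 10224 in MA234.1 replicates 1 to 3. The ΔaslA sums and those of ΔaslB replicates 1 and 3 all lay above every MA234.1 sum, and the sum of ΔaslB replicate 2 lay close to them. The 13 measured genes not called are named under each role below. The remaining 2 genes had too few reads to test: asnS (ATCC64974_99160), closest to a bacterial asparagine ligase, had 0 counts in every library, and a second GRS1 entry (ATCC64974_40810) reached 0.144 CPM in ΔaslB replicate 1 and was at 0 elsewhere; 3 counts correspond to 0.158 to 0.275 CPM in these libraries.

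**Figure D1:**
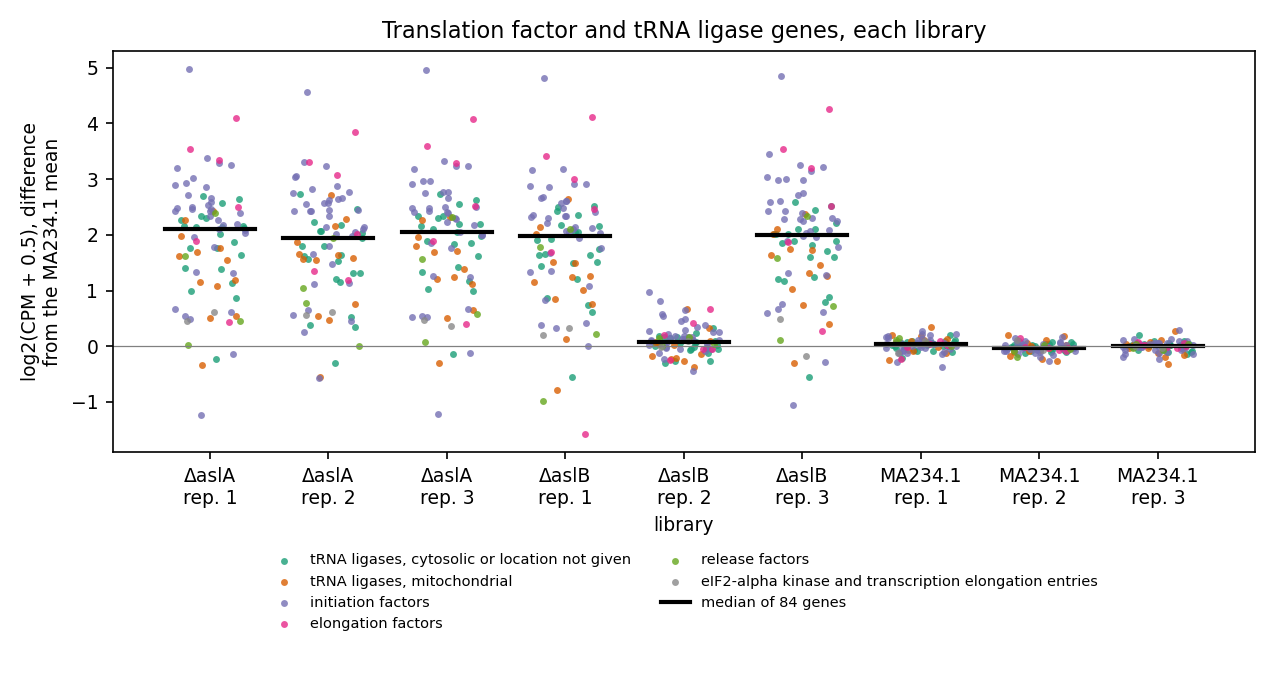
Each point is 1 of the 84 measured genes in 1 library, as log2(CPM + 0.5) minus the mean of the 3 MA234.1 libraries, coloured by role; black bars are medians over the 84 genes. The bars lie at 2.11, 1.94 and 2.05 in ΔaslA replicates 1 to 3 and at 1.98, 0.08 and 1.99 in ΔaslB replicates 1 to 3, with MA234.1 around 0.

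Most initiation factors rose. Of 37 genes, 33 were called higher in ΔaslA and 4 were not called, with a median log2 fold change of 2.44. The largest change of all 84 genes was that of tif1 (ATCC64974_53390, contig 7, 3300799 to 3302442), the A. niger eIF4A, a helicase that unwinds the mRNA leader ahead of the scanning ribosome. It had 1372, 1030 and 1359 CPM in ΔaslA replicates 1 to 3, against 45.6, 39.0 and 45 CPM in MA234.1 replicates 1 to 3. The strains did not overlap, the log2 fold change was 4.86 (SE 0.93, edgeR adjusted p = 0.00808), and it ranked 13 of 9568 genes by that value. In a fit of the 6 ΔaslA and MA234.1 libraries alone, the log2 fold change of tif1 was 4.85 (edgeR adjusted p = 6.42e-08). The cap-binding protein eIF4E, which recruits the helicase to the mRNA, had 3 entries that differed in response. tif451 (ATCC64974_40070) rose to 128, 115 and 129 CPM in ΔaslA, against 16.3, 15.7 and 18.2 CPM in MA234.1, a log2 fold change of 2.89. Eif4e2 (ATCC64974_8810), closest to a mouse type 2 protein, rose by 1.57 on the log2 scale. The type 3 entry eif4e3-b (ATCC64974_102870) was at 8.51, 13.8 and 8.55 CPM in ΔaslA and 20.5, 19.9 and 21.3 CPM in MA234.1. All ΔaslA libraries lay below all MA234.1 libraries for this entry, with a log2 fold change of -1.0 that missed the threshold (SE 0.38, edgeR adjusted p = 0.0549).

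eIF3, the scaffold that holds the small ribosomal subunit, the mRNA and the other factors together, was represented by 13 subunit genes, and all 13 rose. Their log2 fold changes ran from 2.2 for nip1 (subunit C, ATCC64974_1010) to 3.32 for prt1 (subunit B, ATCC64974_18360, contig 3, 2152995 to 2155443), with a median of 2.45. prt1 had 796, 728 and 770 CPM in ΔaslA replicates 1 to 3, against 83.1, 73.7 and 73.0 CPM in MA234.1 replicates 1 to 3. Subunit F (An08g00880, ATCC64974_105750, contig 17, 3136022 to 3137216) was next, at 315, 280 and 309 CPM in ΔaslA and 37.6, 32.0 and 32.0 CPM in MA234.1. For both subunits every ΔaslA library was several times above every MA234.1 library. The summed eIF3 level was 4965, 5121 and 4988 CPM in ΔaslA and 892, 812 and 816 CPM in MA234.1. The 13 genes lie on 6 contigs.

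eIF2, which carries the initiator tRNA, rose in all 3 subunits, by 2.75 for the alpha subunit tif211 (ATCC64974_54930), 2.48 for the beta subunit tif212 (ATCC64974_52930) and 2.15 for the gamma subunit GCD11 (ATCC64974_77980) on the log2 scale. Its exchange factor eIF2B rose in 5 of 6 entries. The alpha subunit tif221 (ATCC64974_108020) and the epsilon subunit tif225 (ATCC64974_97960) changed by 3.15 and 3.09, and the delta subunit tif224 (ATCC64974_5020) and the beta subunit tif222 (ATCC64974_105640) both by 2.07. Both entries closest to the gamma subunit are called tif223. The first (ATCC64974_30750, contig 4, 1274835 to 1276783) had 84.7, 62.9 and 80.7 CPM in ΔaslA, against 8.90, 8.06 and 7.60 CPM in MA234.1, a log2 fold change of 3.22 (SE 0.75, edgeR adjusted p = 0.0102). The second (ATCC64974_97240, contig 17, 437853 to 439534) had 64.1, 71.2 and 65.1 CPM in ΔaslA and 42.7, 48.4 and 45 CPM in MA234.1, a log2 fold change of 0.56 that was not called (edgeR adjusted p = 0.114). Both tif223 entries thus stood at similar CPM in ΔaslA, while in MA234.1 the second was the higher one. The eIF2-alpha kinase entry EIF2AK1 (ATCC64974_85530), an enzyme type that blocks eIF2 recycling by phosphorylating its alpha subunit, had 29.9, 29.7 and 25.0 CPM in ΔaslA, against 20.7, 18.3 and 19 CPM in MA234.1. The ΔaslA libraries were all the higher ones, but the difference was not called (log2 fold change 0.54, edgeR adjusted p = 0.057).

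Among the single-protein initiation factors, eIF5A, eIF1 and eIF1A had the highest levels per length. ANB1 (ATCC64974_20800, contig 3, 2951376 to 2952210), closest to eIF5A, which helps ribosomes past stretches that form peptide bonds slowly, had 1519, 1325 and 1460 CPM in ΔaslA and 190, 185 and 186 CPM in MA234.1. Its mean of 1718 CPM per kb of gene span in ΔaslA was the second highest of the 86 genes, against the seventh place with 224 CPM per kb in MA234.1. SUI1 (ATCC64974_94880, contig 16, 2495088 to 2495843), the eIF1 that guards start codon choice, rose less, to 1113, 963 and 1054 CPM in ΔaslA, against 407, 469 and 450 CPM in MA234.1 (log2 fold change 1.24, SE 0.32, edgeR adjusted p = 0.0137). eIF1A (EIF1AY, ATCC64974_35160), its partner in scanning, rose by 1.83 on the log2 scale. The rises of eIF6 (tif6, ATCC64974_65560), which keeps the large subunit from joining early, of eIF5B (SPAC56F8.03, ATCC64974_20860), the GTPase of subunit joining, and of the ribosome recycling ATPase RLI1 (ATCC64974_104600) were 2.72, 2.14 and 2.41 on the log2 scale. eIF2A (SPBC4B4.04, ATCC64974_95260) rose by 1.69.

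TIF5 (ATCC64974_37550), closest to eIF5, which triggers GTP hydrolysis by eIF2, had the smallest positive change of the initiation factors other than the IF-2 and IF-3 entries. It had 312, 255 and 309 CPM in ΔaslA, against 222, 207 and 210 CPM in MA234.1. Its libraries did not overlap between the strains, yet the log2 fold change of 0.45 was not called (edgeR adjusted p = 0.125). The entries of bacterial type, IF-2 and IF-3, changed by less than the initiation factor median of 2.44. Of them IFM1 (ATCC64974_107470) is described as mitochondrial, while infC (ATCC64974_102840) and infB (ATCC64974_39710) match bacterial proteins with no stated location. IFM1 and infC were called higher, by 0.59 and 0.83. infB, at 48.4, 72.6 and 48.7 CPM in ΔaslA and 49.6, 59.6 and 50.8 CPM in MA234.1, was not called (log2 fold change 0.09, edgeR adjusted p = 0.755). Among the 37 initiation factor genes, infB was the only one whose values overlapped between the strains.

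**Figure D2:**
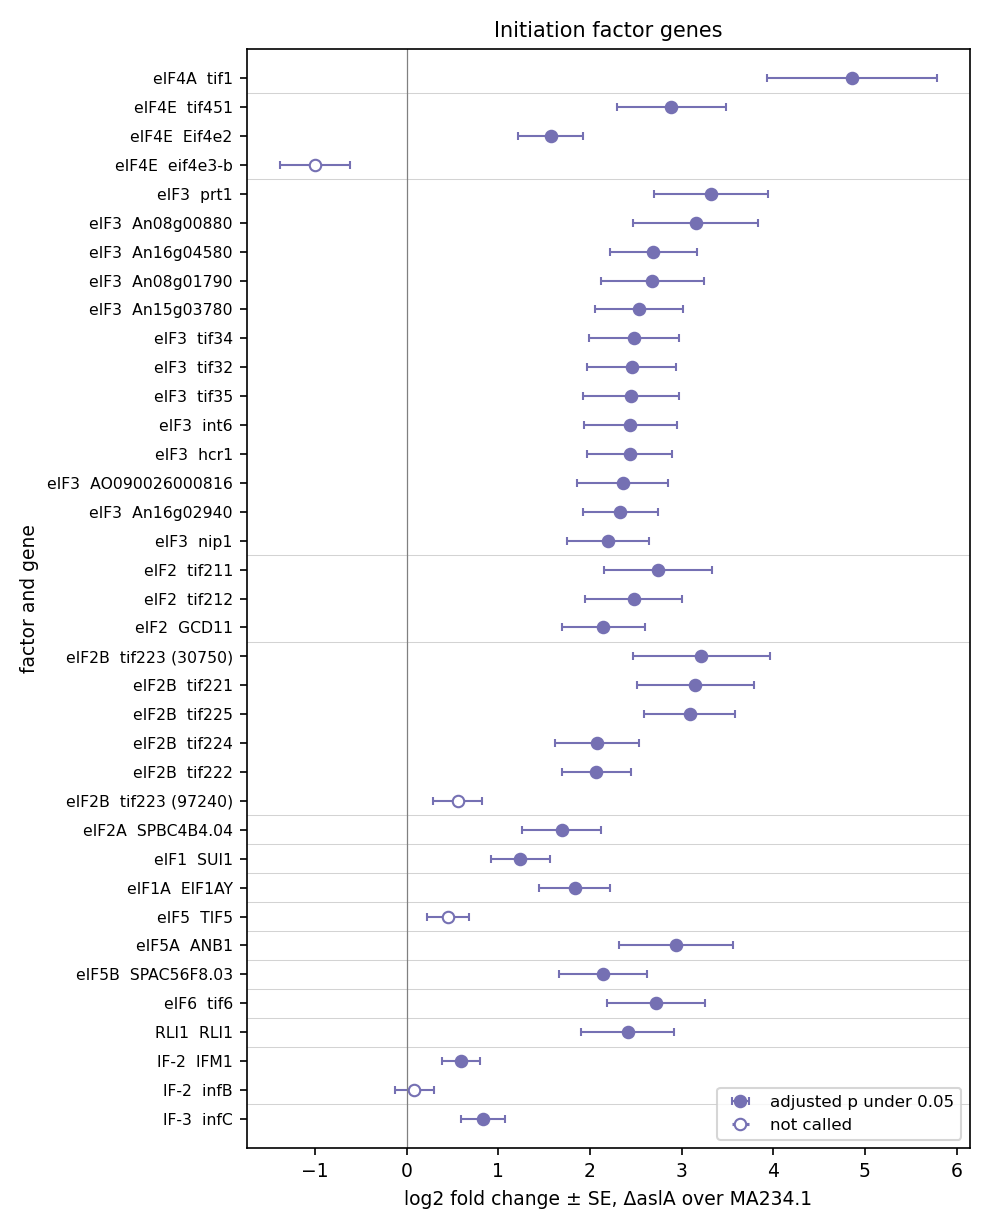
Log2 fold change of the 37 initiation factor genes in ΔaslA over MA234.1, with its standard error from edgeR, grouped by factor; filled points have an adjusted p under 0.05 and open points were not called. All 13 eIF3 points lie between 2.2 and 3.32, and the 4 open points lie between -1.0 and 0.56.

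Of the 6 elongation factor genes, 5 rose and 1 was not called. TEF3 (ATCC64974_44980, contig 7, 537461 to 540729), closest to eEF3, the fungal ATPase that frees spent tRNA from the ribosome, had 1634, 1370 and 1609 CPM in ΔaslA replicates 1 to 3, against 96.3, 89.4 and 99.1 CPM in MA234.1 replicates 1 to 3. The strains did not overlap and the log2 fold change was 4.02 (SE 0.77, edgeR adjusted p = 0.00808). CAM1 (ATCC64974_32100, contig 4, 1697128 to 1698709), closest to the yeast eEF1 gamma subunit, had 993, 848 and 1040 CPM in ΔaslA and 73.0, 94.7 and 89.8 CPM in MA234.1. The eEF1 beta gene eef1b (ATCC64974_103680, contig 17, 2502288 to 2503413), the exchange factor that reloads eEF1 alpha with GTP, had 1409, 1166 and 1346 CPM in ΔaslA and 141, 135 and 136 CPM in MA234.1. CAM1 and eef1b both rose, with log2 fold changes of 3.48 and 3.25, while a further entry of this exchange complex, eef1g, described below, was not called.

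The substrate of that complex, eEF1 alpha, brings each charged tRNA to the ribosome and was the most abundant of the 86 transcripts per length in every strain. Its gene tef1 (ATCC64974_107900, contig 17, 3841543 to 3843112) had 11551, 8272 and 11693 CPM in ΔaslA, against 2088, 1999 and 2070 CPM in MA234.1, or means of 6691 and 1307 CPM per kb. Its log2 fold change of 2.36 (SE 0.59, edgeR adjusted p = 0.0126) was smaller than those of CAM1 and eef1b. The translocase eEF2 (cot-3, ATCC64974_57990, contig 7, 4850090 to 4853091) had 3941, 2706 and 3910 CPM in ΔaslA, against 1053, 1050 and 1078 CPM in MA234.1, a log2 fold change of 1.73 (SE 0.49, edgeR adjusted p = 0.0189). For tef1, cot-3 and TEF3 alike, ΔaslA replicate 2 was the lowest of the ΔaslA libraries and still above all MA234.1 libraries. A second gamma entry, eef1g (ATCC64974_15620, contig 3, 1330738 to 1331455), closest to a goldfish protein, was at 676, 1136 and 661 CPM in ΔaslA, at 168, 483 and 606 CPM in ΔaslB and at 536, 474 and 490 CPM in MA234.1. Here ΔaslA replicate 2 was the highest library and ΔaslB replicate 1 the lowest, and the difference between ΔaslA and MA234.1 was not called (log2 fold change 0.72, edgeR adjusted p = 0.194).

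The release factors split by compartment. eRF1 (SU2, ATCC64974_65890), which recognises stop codons, had 654, 476 and 624 CPM in ΔaslA, against 128, 125 and 118 CPM in MA234.1, and its partner GTPase eRF3 (SUP35, ATCC64974_90520) had 260, 174 and 248 CPM in ΔaslA, against 90.3, 79.2 and 82.0 CPM in MA234.1. Both rose, by 2.24 and 1.44 on the log2 scale, and neither overlapped between the strains. The mitochondrial release factor SPAC2F7.17 (ATCC64974_95740) was at 76.3, 55.5 and 82.6 CPM in ΔaslA and 55.5, 53.5 and 57.0 CPM in MA234.1. The release factor-like entry SPBC1105.18c (ATCC64974_31730) was at 17.8, 30.5 and 18.4 CPM in ΔaslA and 19.4, 15.3 and 18.1 CPM in MA234.1. Both overlapped between the strains and neither was called, with log2 fold changes of 0.37 and 0.34 (edgeR adjusted p = 0.209 and 0.436).

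**Figure D3:**
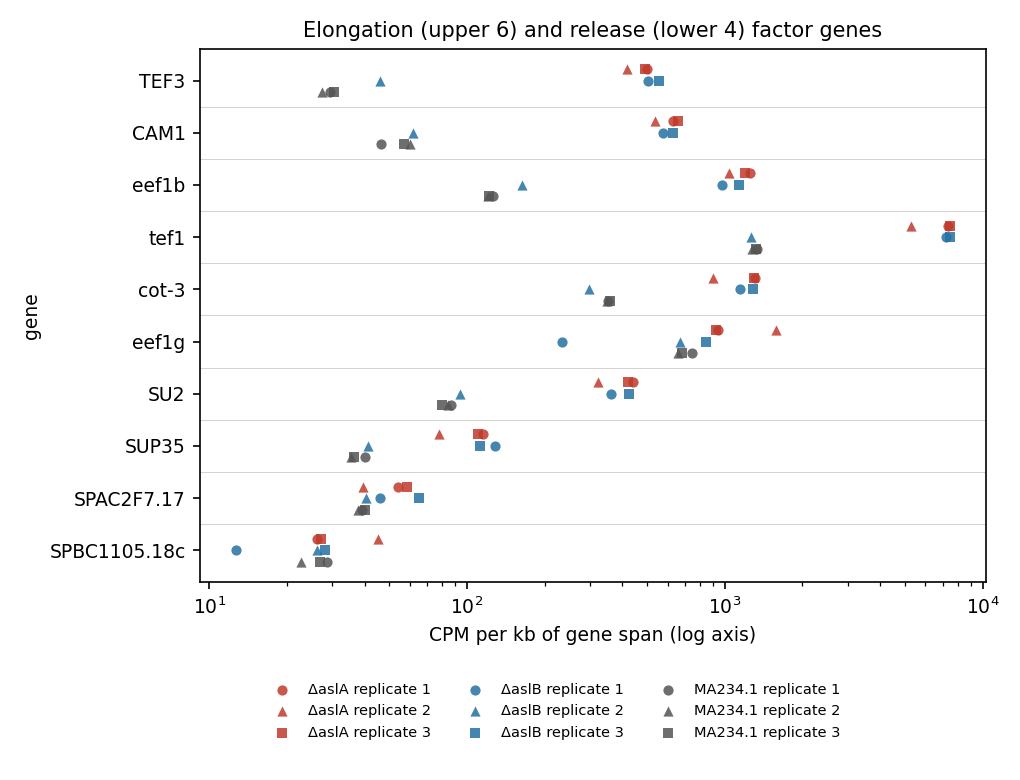
CPM per kb of gene span on a log axis for 6 elongation and 4 release factor genes, 1 point per library, with ΔaslA in the upper line of each gene, ΔaslB in the middle and MA234.1 below; the marker gives the replicate. For TEF3, CAM1, eef1b, tef1, cot-3, SU2 and SUP35 the ΔaslA points and those of ΔaslB replicates 1 and 3 lie right of all MA234.1 points. The ΔaslB replicate 2 triangle lies nearer to MA234.1, above all its points for TEF3, CAM1, eef1b, SU2 and SUP35 and below all of them for tef1 and cot-3.

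The tRNA ligases rose about as often as the factors, with smaller median changes. Of the 22 measured ligases with a cytosolic or no stated location, 19 were called higher in ΔaslA (median log2 fold change 1.95), and of the 13 measured mitochondrial ones, 11 were (median 1.66). The largest cytosolic rise was that of the tyrosine ligase TYS1 (ATCC64974_60600, contig 8, 527977 to 529453), with 173, 154 and 171 CPM in ΔaslA, against 31.7, 26.2 and 24.7 CPM in MA234.1 (log2 fold change 2.59, SE 0.50, edgeR adjusted p = 0.0081). For leucine, leu-6 (ATCC64974_98060, contig 17, 697819 to 701541) had 481, 311 and 495 CPM in ΔaslA and 71.0, 75.2 and 75.8 CPM in MA234.1. The lysine ligase entry KARS (ATCC64974_20150, contig 3, 2755290 to 2757443), closest to the human enzyme, had 108, 148 and 114 CPM in ΔaslA and 22.3, 21.7 and 22 CPM in MA234.1. In all of these, each ΔaslA library exceeded each MA234.1 library, and the log2 fold changes of leu-6 and KARS were 2.54 and 2.49. A second lysine ligase entry, krs1 (ATCC64974_88850), rose by 2.13. Phenylalanine ligase is made of 2 kinds of subunit, and the genes of both rose: the beta subunit FRS1 (ATCC64974_109200) to 303, 231 and 298 CPM in ΔaslA, against 52.3, 48.1 and 51.3 CPM in MA234.1, and the alpha subunit FRS2 (ATCC64974_48960) to 229, 244 and 225 CPM in ΔaslA, against 54.9, 47.3 and 53.3 CPM in MA234.1. Their log2 fold changes were 2.45 and 2.17.

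The alanine ligase ala1 (ATCC64974_66090) had the smallest change of the ligases called in this group, 0.97 on the log2 scale. The cytosolic serine ligase SPAC29A4.15 (ATCC64974_66030, contig 10, 915151 to 916962) had the highest mean per length of this group in ΔaslA, 354 CPM per kb against 85.5 CPM per kb in MA234.1, with 697, 538 and 692 CPM in ΔaslA and 155, 154 and 156 CPM in MA234.1. In MA234.1 the highest was instead the aspartate ligase entry DPS1 (ATCC64974_18840, contig 3, 2298108 to 2300967), at 290 CPM per kb against 249 CPM per kb in ΔaslA. This entry had 708, 675 and 754 CPM in ΔaslA, against 841, 852 and 794 CPM in MA234.1. Its ΔaslA libraries all lay below the MA234.1 libraries by a small margin that was not called (log2 fold change -0.22, SE 0.21, edgeR adjusted p = 0.41). A second gene closest to the same yeast protein, DPS1 (ATCC64974_47460), had 396, 269 and 415 CPM in ΔaslA and 120, 116 and 113 CPM in MA234.1, and rose by 1.63 on the log2 scale. The other ligases not called were closest to bacterial enzymes. The isoleucine entry ileS (ATCC64974_40170) had 107, 69.8 and 110 CPM in ΔaslA and 46.3, 53.9 and 61.3 CPM in MA234.1, and the proline entry proS (ATCC64974_104130) had 73.2, 50.5 and 79.8 CPM in ΔaslA and 39.998, 36.9 and 42.4 CPM in MA234.1. Neither overlapped between the strains, and their log2 fold changes were 0.83 and 0.77 (edgeR adjusted p = 0.0856 and 0.0631). The cytosolic isoleucine ligase irs1 (ATCC64974_101090) and the proline ligase prs1 (ATCC64974_27880) rose by 2.17 and 1.32.

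The mitochondrial ligases ran from -0.40 to 2.51 on the log2 scale, and the other ligases from -0.22 to 2.59. hts1 (ATCC64974_16570, contig 3, 1632633 to 1634272), for histidine, had 205, 251 and 191 CPM in ΔaslA, against 40.9, 32.2 and 40.6 CPM in MA234.1 (log2 fold change 2.51, SE 0.45, edgeR adjusted p = 0.00808). cyt-20 (ATCC64974_67100, contig 10, 1335647 to 1339073), for valine, had 536, 331 and 540 CPM in ΔaslA and 117, 104 and 114 CPM in MA234.1. The glycine ligase GRS1 (ATCC64974_65660, contig 10, 806934 to 808981) had 377, 301 and 372 CPM in ΔaslA and 109, 84.5 and 93.1 CPM in MA234.1, and the highest mean per length of the mitochondrial group, at 171 CPM per kb in ΔaslA. These genes encode both the cytosolic and the mitochondrial enzyme in yeast or Neurospora, a trait by which the ligases outside this group were not sorted. They had the largest changes of the mitochondrial group, 2.51, 2.07 and 1.87, and without them the median of the other 10 was 1.46. MSE1 (ATCC64974_27640), for glutamate, followed with 27.4, 46.1 and 24.4 CPM in ΔaslA and 8.90, 7.46 and 11.1 CPM in MA234.1. At the other end, the leucine ligase leu-5 (ATCC64974_32420) had 104, 102 and 105 CPM in ΔaslA and 83.8, 70.1 and 67.4 CPM in MA234.1 (log2 fold change 0.49, edgeR adjusted p = 0.131). The tryptophan ligase MSW1 (ATCC64974_32870, contig 4, 1921020 to 1922247) was the only mitochondrial ligase with lower values in ΔaslA, at 90.8, 78.2 and 94.1 CPM, against 109, 116 and 122 CPM in MA234.1. Its libraries did not overlap, but the change of -0.40 on the log2 scale was not called (SE 0.20, edgeR adjusted p = 0.119).

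For 10 amino acids the table held a separate cytosolic and mitochondrial ligase, which allows each pair to be set side by side in the same libraries. Isoleucine, proline and lysine were not set in pairs. Their further entries have no stated location: ileS and proS, closest to bacterial enzymes, and KARS, closest to the human enzyme. For lysine, KARS had a larger log2 fold change than the cytosolic krs1. With DPS1 (ATCC64974_47460) taken for aspartate and FRS2 for phenylalanine, the cytosolic entry had the larger log2 fold change in 8 of the 10. In tryptophan the cytosolic WRS1 (ATCC64974_9810) changed by 1.53 and the mitochondrial MSW1 by -0.40, in leucine leu-6 changed by 2.54 and leu-5 by 0.49, and in phenylalanine FRS2 changed by 2.17 and MSF1 (ATCC64974_60420) by 1.00. In methionine, MES1 (ATCC64974_106090) changed by 1.75 and the mitochondrial 93G11.130 (ATCC64974_78250) by 0.65, in tyrosine TYS1 changed by 2.59 and cyt-18 (ATCC64974_78970) by 1.66, and in asparagine DED81 (ATCC64974_51510) changed by 2.02 and SLM5 (ATCC64974_70550) by 1.33. In these 6 amino acids the ratio of cytosolic to mitochondrial CPM was higher in each ΔaslA library than in each MA234.1 library. How often the ratios of other gene pairs separate in this way was not counted, so the 6 have no background share. The tryptophan ratio on the log2 scale was 1.55, 1.45 and 1.47 in ΔaslA, 1.87, -0.13 and 1.46 in ΔaslB and -0.47, -0.37 and -0.48 in MA234.1. In MA234.1, and in the library labelled ΔaslB replicate 2, the mitochondrial transcript was thus the more abundant of the tryptophan pair by CPM, and in the other libraries the cytosolic one was. For serine, with SPAC29A4.15 at 2.05 and DIA4 (ATCC64974_55650) at 1.59, and for glutamate, with gus1 (ATCC64974_8370) at 2.01 and MSE1 at 1.84, the ratios overlapped between the strains. For threonine, with ths1 (ATCC64974_15730) at 1.70 and SPAC24C9.09 (ATCC64974_14640) at 1.77, the mitochondrial change was the larger by 0.07 and the ratios overlapped. Aspartate had 2 cytosolic entries, both DPS1. Set against the mitochondrial MSD1 (ATCC64974_79020) at 1.69, ATCC64974_47460 at 1.63 gave a difference of -0.07 with overlapping ratios. The entry ATCC64974_18840, the more abundant per length, changed by -0.22, a difference of -1.91, and its ratio to MSD1 was lower in each ΔaslA library than in each MA234.1 library. Against MSF1, the phenylalanine beta subunit FRS1 at 2.45 gave a difference of 1.46, beside 1.17 for FRS2. The difference within a pair was not tested in a model.

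**Figure D4:**
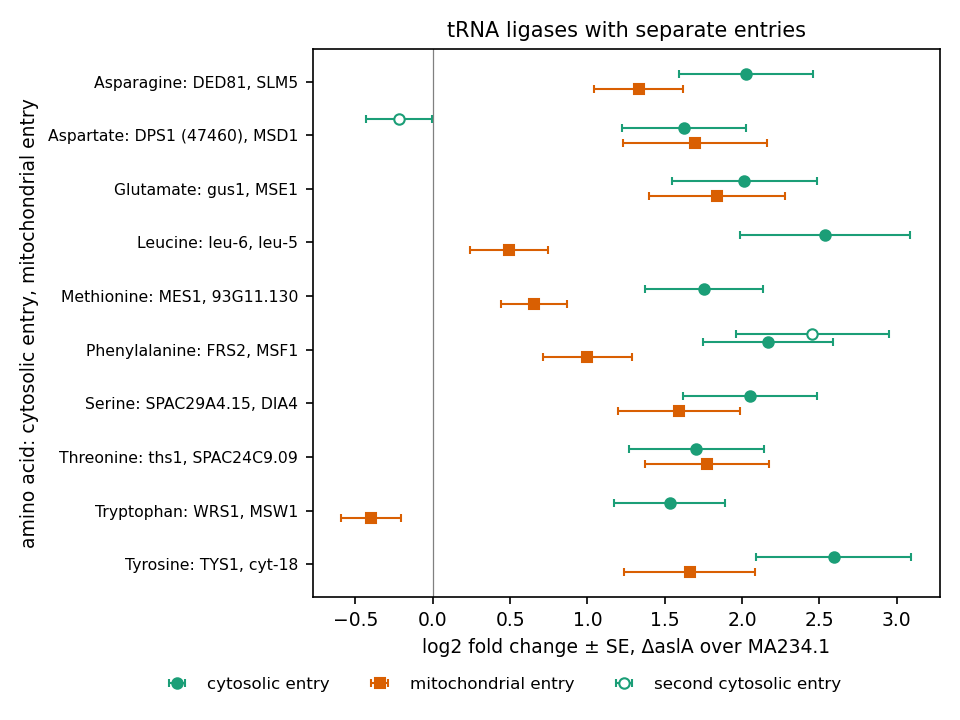
Log2 fold change in ΔaslA over MA234.1, with its edgeR standard error, of the cytosolic (circles) and mitochondrial (squares) tRNA ligase of 10 amino acids. Open circles are the second cytosolic entries of aspartate (ATCC64974_18840) and phenylalanine (FRS1). The filled circles lie between 1.53 and 2.59 and the open ones at -0.22 and 2.45, while the squares run from -0.40 for tryptophan to 1.84 for glutamate.

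**Figure D5:**
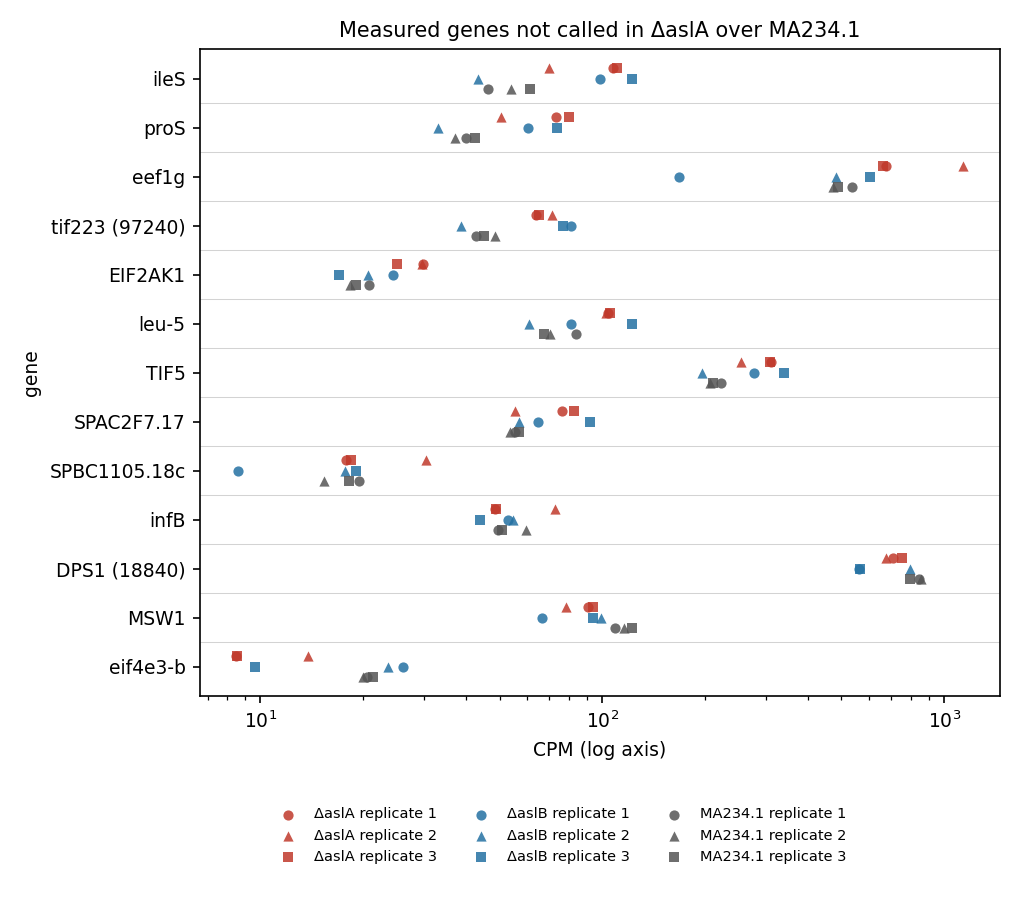
CPM on a log axis of the 13 measured genes that were not called between ΔaslA and MA234.1, 1 point per library, with ΔaslA in the upper line of each gene, ΔaslB in the middle and MA234.1 below, ordered by log2 fold change from 0.83 (ileS) to -1.0 (eif4e3-b). For the lowest 3, DPS1 (ATCC64974_18840), MSW1 and eif4e3-b, every ΔaslA point lies left of every MA234.1 point.

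Other genes that serve translation and tRNA maturation, taken by text from the same annotation, moved in the same direction more often than not. Of 61 such genes 60 were measured, and 51 were called higher and 2 lower in ΔaslA than in MA234.1 (median log2 fold change 2.16), beside the 23.6% and 25% of all genes. Of the 34 tRNA modification and splicing genes 32 rose, and of the 10 genes that modify eIF5A or eEF2 8 did. The largest rises were those of pab1 (ATCC64974_20670), the poly(A)-binding protein that couples mRNA ends to eIF4 factors, at 221, 150 and 215 CPM in ΔaslA, against 7.80, 7.69 and 6.6 CPM in MA234.1, and of the tRNA methyltransferases trm1 (ATCC64974_23420) and trm8 (ATCC64974_17260). Their log2 fold changes were 4.73, 3.90 and 3.57. The enzymes that make the hypusine residue of eIF5A, dys-1 (ATCC64974_72600) and lia1 (ATCC64974_94140), changed by 2.06 and 2.82, beside 2.94 for ANB1. The 2 genes that fell act in mitochondria: the Glu-tRNA(Gln) amidotransferase subunit AFUA_3G04130 (ATCC64974_23360), at 42.4, 35.1 and 42.3 CPM in ΔaslA, against 96.0, 88.9 and 83.9 CPM in MA234.1, and the ribosome-recycling factor RRF1 (ATCC64974_66150), at 56.7, 67.2 and 58.1 CPM in ΔaslA, against 96.6, 92.0 and 88.3 CPM in MA234.1. Both were lower in all ΔaslA libraries, by log2 fold changes of -1.17 and -0.61 (edgeR adjusted p = 0.00808 and 0.0355). Within the same list the mitochondrial elongation factors mef1 (ATCC64974_78530) and TUF1 (ATCC64974_102830) rose by 3.45 and 2.44.

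With a fold threshold of 1 on the log2 scale (edgeR glmTreat) 44 of the 84 genes were called higher and 0 lower, 28 of them initiation factors and 1 a mitochondrial ligase, where 8.09% of all genes were called higher and 11.7% lower. In a fit of the 6 ΔaslA and MA234.1 libraries alone 78 were called higher and 3 lower, where 34.4% and 34.9% of all genes were; the 3 were eif4e3-b, MSW1 and DPS1 (ATCC64974_18840), with edgeR adjusted p = 0.00364, 0.00874 and 0.0422. Without 1 library at a time, 61 of the 71 calls held in every fit, and infC, IFM1, cot-3, MSF1, SPAC1B3.02c (ATCC64974_66070), ala1, 93G11.130, MSD1, SUP35 and SUI1 lost theirs in at least 1 (highest edgeR adjusted p = 0.151). In the authors' deposited table, which holds 1 FPKM value per strain, 72 of the 86 genes had a q under 0.05 and were higher in ΔaslA than in MA234.1, where 19.8% of all 11187 genes were, and 1, eif4e3-b, was lower.

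In ΔaslB, 2 of the 3 libraries showed levels like those of ΔaslA and the third levels like those of MA234.1, and no gene passed the test with all 3. Against MA234.1, edgeR called 0 of the 84 genes and 0% of all 9568 genes, with a median log2 fold change of 1.59 over the 84 genes and 0.01 over all genes, and an adjusted p of 0.0665 or more. The unadjusted p was under 0.05 for 66 of the 84 genes and for 2943 of all 9568 genes. This comparison uses the same MA234.1 libraries as that of ΔaslA, so the 2 are not independent. tif1 had 1232, 62.9 and 1262 CPM in ΔaslB replicates 1 to 3, TEF3 had 1649, 151 and 1822 CPM, and tef1 had 11288, 1984 and 11770 CPM, against the MA234.1 values of 39.0 to 45.6, 89.4 to 99.1 and 1999 to 2088 CPM. In each case replicates 1 and 3 lay far above MA234.1, and replicate 2 lay nearer to MA234.1 than to the other ΔaslB libraries. The ligases followed this split: TYS1 was at 160, 34.4 and 159 CPM in ΔaslB, leu-6 at 423, 83.3 and 449 CPM and hts1 at 237, 60.2 and 198 CPM, against MA234.1 ranges of 24.7 to 31.7, 71.0 to 75.8 and 32.2 to 40.9 CPM. Over the 84 genes the median distance above the MA234.1 mean was 1.98, 0.08 and 1.99 on the log2 scale in ΔaslB replicates 1 to 3, beside -0.0016, -0.07 and -0.07 over all genes.

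Not every gene followed that split. IFM1, the mitochondrial IF-2, had 109, 85.3 and 65.1 CPM in ΔaslB replicates 1 to 3, against 44.5, 42.4 and 42.5 CPM in MA234.1, so that all ΔaslB libraries, replicate 2 included, were above MA234.1. eif4e3-b had 26.0, 23.5 and 9.64 CPM in ΔaslB, where replicate 3 alone lay below MA234.1. SPBC1105.18c had 8.58, 17.6 and 19 CPM in ΔaslB, with replicate 1 the lowest of all 9 libraries. MSW1 was at 66.5, 99.1 and 94.0 CPM and DPS1 (ATCC64974_18840) at 563, 792 and 567 CPM in ΔaslB, each below every MA234.1 library. All 3 ΔaslB libraries lay above all MA234.1 libraries for 41 of the 84 genes, where 14% of all genes did. A position below all of them, as seen for MSW1 and DPS1 (ATCC64974_18840), was held by 22.8% of all genes. How many of the 84 genes held it was not counted.

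Leaving out the library labelled ΔaslB replicate 2 changed the count. edgeR then called 74 of the 84 genes higher and 2 lower in ΔaslB than in MA234.1, where 26.5% and 26.3% of all genes were called, and the median log2 fold change of the 84 genes was 1.98. The log2 fold change of tif1 was then 4.85 (edgeR adjusted p = 2.75e-07) and that of TEF3 4.20 (edgeR adjusted p = 2.74e-07). The genes called lower were DPS1 (ATCC64974_18840), by -0.55, and MSW1, by -0.52 on the log2 scale (edgeR adjusted p = 0.00414 and 0.032). By role, 35 of 37 initiation factors, 5 of 6 elongation factors, 2 of 4 release factors, 21 of 22 other ligases and 11 of 13 mitochondrial ligases were then higher. With all 9 libraries, DESeq2 called 61 of the 84 genes higher and 0 lower, where 13.9% and 4.89% of all genes were, and edgeR without TMM scaling called 44 higher and 0 lower, where 7.98% and 0.199% were. By the q-values of the authors' deposited table, 67 of the 86 genes had a q under 0.05 and were higher in ΔaslB than in MA234.1, where 14.6% of all 11187 genes were, and 0 were lower.

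ΔaslA and ΔaslB were compared directly in the same fit. edgeR called 0 of the 84 genes and 0% of all genes, with a median log2 fold change of 0.44 over the 84 genes and -0.02 over all genes, and adjusted p of 0.254 or more among the 84. The unadjusted p was under 0.05 for 1 of the 84 genes and for 1651 of all 9568 genes. The 1 gene was eif4e3-b, with 8.51, 13.8 and 8.55 CPM in ΔaslA and 26.0, 23.5 and 9.64 CPM in ΔaslB (log2 fold change -0.94). DESeq2 also called 0 of the 84. The eif4e3-b values overlapped between the strains, since ΔaslB replicate 3 lay within the range of ΔaslA. All ΔaslA libraries exceeded all ΔaslB libraries for 11 of the 84 genes, where 6.73% of all genes did, and lay below them for 0, where 8.98% did. Without ΔaslB replicate 2, 0 of the 84 were called either, and the median was 0.05. Without ΔaslB replicate 3, 1 was called, eif4e3-b, lower in ΔaslA by a log2 fold change of -1.26 (edgeR adjusted p = 0.0238), where 2.14% of all genes were called higher and 11% lower. A difference between the 2 deletion strains in this gene set was not detected with these libraries, which does not show that the strains were alike.

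Within ΔaslA, replicate 2 differed from replicates 1 and 3. It was the lowest of the ΔaslA libraries for 56 of the 84 genes and the highest for 24. It was the lowest for 19 of the 22 other ligases and 5 of the 6 elongation factors. For the mitochondrial ligases it was the lowest for 7 and the highest for 6 of 13. DIA4 was highest there, at 36.5, 77.5 and 40.8 CPM in ΔaslA replicates 1 to 3, against 17.9, 18.6 and 14.9 CPM in MA234.1, while cyt-20 and leu-6 were lowest there. Over all 9568 genes replicate 2 was the lowest for 4262 and the highest for 4168.

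The 86 genes lie on 14 of the 19 contigs that carry genes, 19 of them on contig 17, which carries 1588 genes, and no member was the next gene to another. On contig 10, 6 of them lie between 764100 and 1020451: tif6, GRS1 (ATCC64974_65660), SU2, SPAC29A4.15, SPAC1B3.02c and ala1. Their log2 fold changes were 2.72, 1.87, 2.24, 2.05, 0.50 and 0.97, so neighbours in this stretch ranged from among the larger to among the smaller changes. No gene model of the table overlapped one of the 86.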

How the data were processed

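The counts deposited by the authors are whole reads per gene, not normalized, for 11187 genes in each of 9 libraries. The authors' deposited table adds 1 FPKM value per strain, log2 ratios of FPKM (MA234.1 over the deletion strain) and q-values, gene positions and SwissProt matches. Stranded poly(A) libraries were read as pairs of 50 bp, per the labels. HISAT2 2.2.1, Cuffdiff, Subread and featureCounts are named in the submitters' processing notes; what each did, the genome build, the strand setting and the treatment of multi-mapping reads were not given in the sources used here, so genes with similar copies may share reads.

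Counts were tested with edgeR 4.0.16 (R 4.3.3): filterByExpr (9568 genes kept), TMM scaling, 1 quasi-likelihood fit over all 9 libraries with strain as the only term, and Benjamini-Hochberg adjustment over all genes kept. A gene was called at an adjusted p under 0.05. CPM use TMM-scaled library sizes; gene span lengths come from the deposited positions. Chi-square per degree of freedom ran from 2.36 to 643 between libraries of 1 strain and from 24.6 to 861 between strains, and was 47.3 to 49.7 between ΔaslB replicate 2 and the MA234.1 libraries, so no pair of libraries differed by sampling noise alone. Counts were simulated for each comparison with the same dispersion of 0.05 in every library. The genes tested were 9469 for ΔaslA with MA234.1, 9546 for ΔaslB with MA234.1 and 9373 for ΔaslA with ΔaslB. The test recovered 100% of genes changed 4-fold and 16-fold and called 10 to 15 unchanged genes. No library was simulated to stand apart, while in the data all comparisons share 1 estimate of the spread. The recovery therefore does not give the power of any comparison in these data.

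In each role, library values are given for the 4 largest rises, the 2 smallest changes, the 2 highest CPM per kb and every measured gene not called. Ligase pairs are given by fold change, as are, of the other translation genes, the 3 largest called rises and the 2 called falls, with library values for some. Values of further genes (tif451, SU2, SUP35, IFM1, abaA, brlA, wetA) were added after they were seen. The genes and lists were chosen with earlier results of these data known. Alternatives were DESeq2 1.42.0, RLE scaling, library totals, no and a stricter filter, the 6 libraries of a comparison, a replicate block, a minimum fold of 1 on the log2 scale, and leaving out 1 library at a time.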

Additional observations from a re-analysis of the deposited data

How the results depend on the processing

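Against the 71 genes called between ΔaslA and MA234.1, RLE scaling, library totals, DESeq2, no filter, a stricter filter (at least 10 CPM in 3 libraries) and the fit of the 6 libraries alone gave 71, 70, 73, 72, 70 and 81; in the last, eif4e3-b, MSW1 and DPS1 (ATCC64974_18840) were called lower. The fold threshold gave 44 of the 84 genes, 1891 of all genes and 30 of the other translation and tRNA genes, against 71, 4657 and 53. Leaving out 1 library at a time gave 62 to 78 of the 84 genes, 38 to 57 of the other list and 3078 to 5900 of all genes, the lowest without MA234.1 replicate 3 and the highest without ΔaslB replicate 2. With the 6 libraries alone and 1 left out, a setting chosen after seeing the data, it gave 79 to 82, 54 to 59 and 5716 to 7366, the highest of all genes without ΔaslA replicate 2. The groups share replicate numbers. The deviations of same-numbered libraries from their group means correlated at -0.058 to 0.038, and those of differently numbered libraries at -0.044 to 0.065. With 3 libraries per strain this does not settle whether the numbers pair the samples. With the replicate number as a block, 69 of the 84 genes and 4186 of all genes were called, and 0 in the other comparisons.

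Between ΔaslB and MA234.1, where the count was 0, library totals gave 44 of the 84 genes, 783 of all genes and 26 of the other list, and DESeq2 gave 61, 1796 and 41. Without 1 library the counts ran from 0 to 76, 0 to 5102 and 0 to 55, the highest without ΔaslB replicate 2; without ΔaslB replicate 3, 24 of all genes were called. Between ΔaslA and ΔaslB, where the count was also 0, DESeq2 called 553 of all genes and 1 of the other list, and leaving out 1 library gave 0 to 1 of the 84 genes, 0 to 1282 of all genes and 0 to 2 of the other list, the highest without ΔaslB replicate 3; without ΔaslB replicate 2, 57 of all genes were called. The causes were not tested. With library totals the median log2 fold change of all genes was 0.10 in ΔaslB over MA234.1, against 0.01 with TMM, and -0.11 in ΔaslA over ΔaslB, against -0.02.

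Some uncalled changes near 0 turned sign. infB in ΔaslA over MA234.1 was -0.0128 with the stricter filter, -0.13 to 0.23 with 1 library left out, lowest without ΔaslA replicate 2, and -0.126 without that library in the 6 libraries. In ΔaslB over MA234.1, eif4e3-b was 0.0475 with library totals and -0.31 to 0.27 with 1 library left out, and SPBC1105.18c -0.42 to 0.062. In ΔaslA over ΔaslB, leaving out 1 library gave -0.0103 to 0.74 for hts1, -0.18 to 0.77 for TEF3 and -0.14 to 0.13 for MSW1. MSW1 was also -0.000471 with RLE, -0.0765 with library totals, -0.00070 with DESeq2, -0.0739 with the stricter filter and -0.000541 in the 6 libraries. With 3 libraries per strain, p-values rest on the spread between these cultures.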
